A study of Mus musculus with 16 samples.

Results

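The genes described here encode the cornified envelope and the late products of epidermal differentiation, and were chosen by gene symbol: every probe whose platform annotation names a gene on a list of 40. Of these 40 genes 35 had at least 1 probe, 44 probes among the 25697 on the array, and Lce1a1, Lce3f, Sprr2h, Flg and Evpl had none under their symbol. Their RNA was measured in 16 hybridisations to single-colour Illumina BeadChips, from tissue that the labels call dorsal skin of mice aged 15 days on a C57/BL6;129Ola mixed background. The labels put 7 arrays in a group of K14-cre; Gab1fl mutants, in which Cre recombinase under the keratin 14 promoter acts in basal keratinocytes and their progeny on a floxed Gab1 allele, and 9 arrays in a group named only control. The labels do not say how many floxed alleles a mutant carried, or whether controls carried Cre or a floxed allele. Gab1 is a docking protein that couples receptor tyrosine kinases to downstream signalling, and the comparison asks what changes when it is lost from K14-positive cells.

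Keratinocytes that leave the basal layer assemble a cornified envelope beneath the plasma membrane. Involucrin, envoplakin and periplakin form a scaffold, to which loricrin, small proline-rich proteins and late cornified envelope proteins are joined by transglutaminases, while filaggrin-type proteins aggregate keratin filaments and are later cleaved by proteases such as caspase-14. Many of these genes lie side by side in the epidermal differentiation complex. In the RefSeq annotation of GRCm38.p6, 25 of the 40 listed genes lie on chromosome 3 between positions 92080271 and 93399442, a stretch of 1.32 Mb. Sbsn, Dmkn and Krtdap form another, smaller cluster on chromosome 7.

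The arrays were not 16 independent samples. Within a labelled group, arrays either correlated at 0.994 to 0.996, which joined them into 5 sets, or at no more than 0.986, and each set, called a source here, was counted as 1 sample. The mutant group thus holds 2 sources (3 and 4 arrays) and the control group 3 sources (3 arrays each), and every source was hybridised on both slides. Whether a source is 1 animal or a pool is not given by the labels, so errors describe the spread between these sources. Levels are normalized signals on the log2 scale, and a probe was tested when its detection p was below 0.05 on at least 7 arrays, which 14504 probes passed, covering 10013 named genes. The tested set held 33 member probes of 26 genes, and where a gene had several probes the brightest tested one stands for it. The filter also decides which members appear below, since a gene seen on only 4 arrays could not pass.

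Gab1, the targeted gene, stood at 11.34 and 11.97 in mutant sources 1 and 2 and at 12.69, 12.69 and 12.68 in the control sources. The mutant mean of 11.65 ± 0.44 (SD, n = 2) was 48.9% of the control mean of 12.69 ± 0.01 (SD, n = 3), with a log2 difference of -1.03 (SE 0.21, limma adjusted p = 0.239, exact two-sided permutation p = 0.1, the smallest that 10 arrangements allow). The mutant sources differed from each other in the Y-linked Eif2s3y, which was above background on 0 of the 4 arrays of mutant source 2 (level 4.78) and stood at 9.14 in mutant source 1 and 10.41 to 10.74 in the control sources. Xist, which is expressed from the inactive X chromosome of females, was above background on all 16 arrays, at 10.26, 10.50 and 9.93 in control sources 1, 2 and 3 and at 10.43 and 11.49 in mutant sources 1 and 2 by its brighter probe. Y-linked RNA and Xist were thus both measured in 4 of the 5 sources, all but mutant source 2, and the labels give neither the sex of the mice nor a pool. The series' design text speaks of sorted integrin alpha 6-positive cells whereas the tissue label says dorsal skin. Genes of dermal fibroblasts were above background (6 of 6 tested, Col1a1 at 11.61 to 12.97), as were those of endothelium (5 of 6 tested), and Krt14, the marker of basal keratinocytes, stood at 15.94 to 16.04, at the upper end of the scale. In such RNA a lower level of a transcript cannot be told apart from fewer cells that make it.

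No member differed between mutant and control past the threshold, and the members varied widely from source to source within each group. Of the 26 tested genes 0 passed the limma test (adjusted p below 0.05), where 0.0499% of all tested genes did, and so did 0 of their 33 probes, where 0.0552% of all tested probes did. By gene, 1 member, Sprr2d, had an unadjusted p below 0.05, where 12.2% of all tested genes did. The log2 difference, mutant minus control, was above 0 in 15 genes and below 0 in 11, with a median of 0.23 beside 0.0025 over all tested genes. Among the 35 genes with a probe, tested or not, the median was 0.21 and 21 were above 0. In contrast, the gap between the highest and the lowest source had a median of 2.81 log2 units in the 26 genes and 0.71 in all tested genes. For the 26 genes the gap was at least 2 log2 units in 21, where 7% of all tested genes reached that size. The spread was not between repeat arrays: the SD between arrays of a source had a median of 0.10 in the members and 0.10 in all genes.

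**Figure D1:**
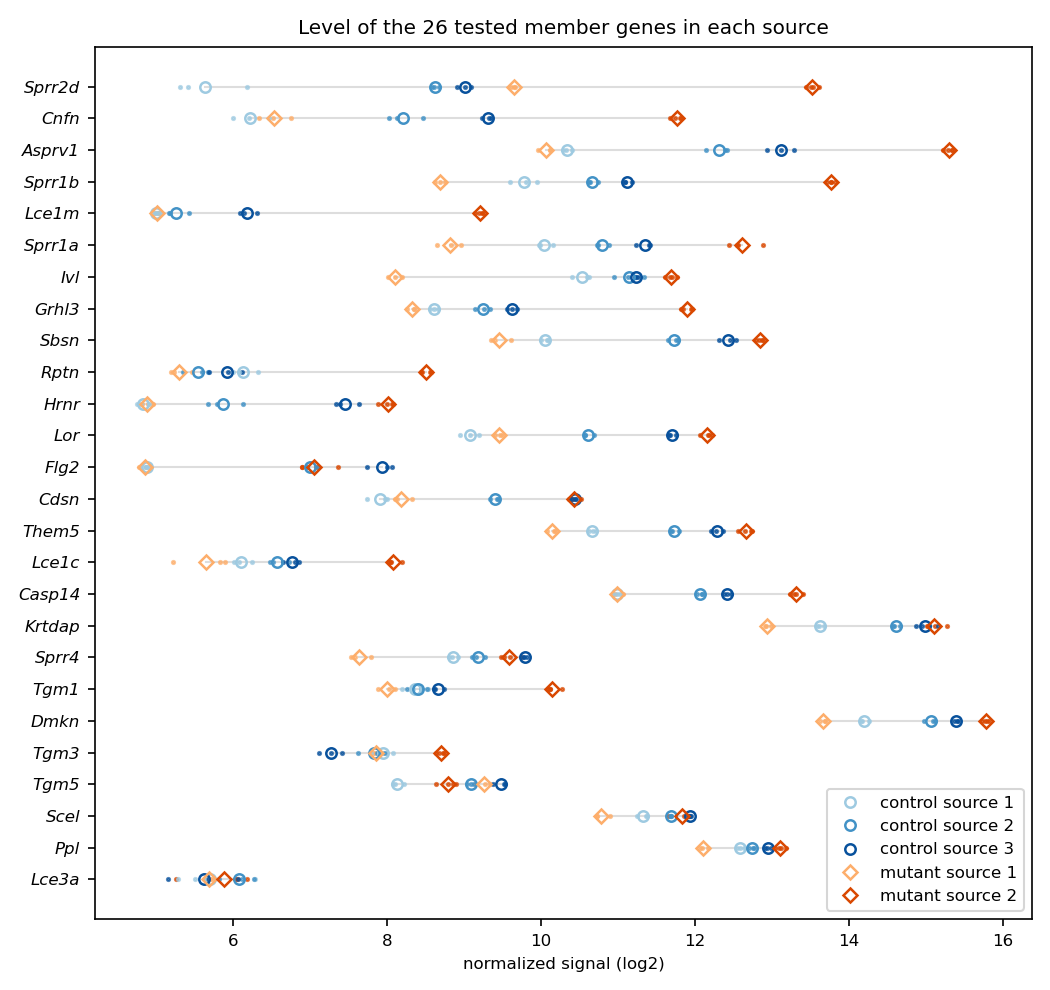
Normalized signal (log2, x axis) of the 26 tested member genes (rows, ordered by their range). Open circles are the means of the 3 control sources, open diamonds those of the 2 mutant sources, and dots are single arrays in the colour of their source. Mutant source 2 holds the highest level in 20 genes, and mutant source 1 the lowest in 16.

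The members moved together across the sources. Mutant source 2 held the highest level in 20 of the 26 genes (28.1% of all tested genes) and mutant source 1 the lowest in 16 (25.8%), while control source 1 held the lowest in 8 (14.6%). Mutant source 2 exceeded mutant source 1 in 25 of the 26 genes (46.7% of all), by at least 1 log2 unit in 22 (8.35%), and Tgm5 was the exception. Among the controls, source 1 lay below both others in 23 genes (37.4%) and source 3 above both others in 23 (39.1%). Relative to the control mean, the median member stood at -0.71, 0.15 and 0.59 in control sources 1, 2 and 3, and at -1.04 and 1.46 in mutant sources 1 and 2. The 3 control sources all lay between the mutant ones, with mutant source 2 on top, in 13 of the 26 genes (11.4%). These counts describe 5 sources, and the genes are not independent of one another.

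The promoters of 5 members are shown, taken from a set of RefSeq promoters on GRCm38.p6. The set used holds one for 37 of the 40 genes (250 bases before to 50 after the annotated start). Capitals mark matches, on either strand, to TGANTCA, where N is any base. This is a loose form of the palindromic consensus of AP-1, the Fos and Jun family of factors, which has C or G in the middle.
Sprr2d promoter, chr3:92338890-92339189, plus strand: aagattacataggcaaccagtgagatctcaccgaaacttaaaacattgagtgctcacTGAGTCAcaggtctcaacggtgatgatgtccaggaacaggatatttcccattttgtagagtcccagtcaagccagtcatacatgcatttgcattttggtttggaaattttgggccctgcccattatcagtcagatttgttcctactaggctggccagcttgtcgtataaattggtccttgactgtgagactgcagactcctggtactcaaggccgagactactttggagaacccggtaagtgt
Sprr2i promoter, chr3:92407741-92408040, plus strand: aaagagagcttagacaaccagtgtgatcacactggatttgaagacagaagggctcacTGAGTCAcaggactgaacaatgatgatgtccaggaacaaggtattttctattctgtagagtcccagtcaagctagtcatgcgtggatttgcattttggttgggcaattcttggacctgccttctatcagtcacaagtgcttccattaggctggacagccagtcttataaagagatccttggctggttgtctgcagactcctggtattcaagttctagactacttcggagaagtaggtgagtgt
Ivl promoter, chr3:92573686-92573985, minus strand: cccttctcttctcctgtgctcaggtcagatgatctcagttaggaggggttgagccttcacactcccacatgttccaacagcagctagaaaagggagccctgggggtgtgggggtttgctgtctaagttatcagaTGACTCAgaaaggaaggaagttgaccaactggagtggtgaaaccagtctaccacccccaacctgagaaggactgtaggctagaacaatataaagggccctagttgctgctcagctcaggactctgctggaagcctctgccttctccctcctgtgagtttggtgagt
Lor promoter, chr3:92083093-92083392, minus strand: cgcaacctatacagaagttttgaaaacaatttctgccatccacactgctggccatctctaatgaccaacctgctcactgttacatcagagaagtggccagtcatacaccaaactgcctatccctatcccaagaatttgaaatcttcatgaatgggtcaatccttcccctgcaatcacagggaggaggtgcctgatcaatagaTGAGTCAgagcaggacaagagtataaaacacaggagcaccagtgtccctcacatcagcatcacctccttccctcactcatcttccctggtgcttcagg
Lce1m promoter, chr3:93019012-93019311, minus strand: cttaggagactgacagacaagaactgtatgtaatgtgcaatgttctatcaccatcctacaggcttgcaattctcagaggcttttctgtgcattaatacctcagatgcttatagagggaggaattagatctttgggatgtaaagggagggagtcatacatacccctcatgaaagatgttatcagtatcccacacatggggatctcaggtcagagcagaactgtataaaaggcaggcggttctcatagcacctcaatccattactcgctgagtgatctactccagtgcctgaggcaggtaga
The motif begins 193 bases before the annotated start in Sprr2d and Sprr2i, 116 before it in Ivl and 48 before it in Lor. Sprr2d and Sprr2i are copies of one gene family in the complex, and their promoters were identical at 237 of 297 aligned bases (79.8%). The motif was present in 15 of the 37 member promoters (40.5%) and in 7.93% of 27025 promoters of the same length. A chromosome without members was left out of the 27025. The 15 were those of Dmkn, Flg, Flg2, Ivl, Krtdap, Lor, Rptn, Sbsn, Scel, Sprr1a, Sprr1b, Sprr2b, Sprr2d, Sprr2h and Sprr2i, and none of the Lce promoters held had it in this window. In Flg, Flg2 and Sprr1b the only match read TGAATCA, and in Rptn TGATTCA, which are not the stricter consensus. The letters AACCNGTT, a form of the grainyhead-like site that GRHL3 and its relatives bind, were found in 2 of the 37 (Rptn and Tgm5, 5.41%) and in 2.01% of the 27025. Lce1m, with no match to either, is shown because its range over the sources was among the largest of the members. Of the 8 members with the widest gap within a group, Sprr2d, Sprr1a, Sprr1b and Ivl held TGANTCA. Asprv1, Cnfn, Grhl3 and Lce1m, the others of the 8, did not. Whether either motif bears on the levels was not tested.

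The small proline-rich genes encode cross-bridging envelope precursors, and the member with the widest range over the sources, Sprr2d, is one of them. Sprr2d stood at 5.64, 8.62 and 9.01 in control sources 1, 2 and 3 and at 9.65 and 13.53 in mutant sources 1 and 2. It was the only tested member with both mutant sources above all controls, an order that 14.1% of all tested genes had, and mutant source 1 exceeded control source 3 by less than the control sources' own range of 3.37. No tested member had both below, where 15.3% of all genes did. The log2 difference of 3.83 (SE 1.48, 95% interval 0.13 to 7.52) had a limma adjusted p of 0.395, and in control source 1 the probe was above background on 1 of 3 arrays. Its measured range was 7.89 log2 units over the sources, the widest of the 10013 tested genes, but since its low end lies near background the range in transcript may be wider, and the order is that of measured signals.

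Sprr1b stood at 9.78, 10.67 and 11.12 in the controls and at 8.69 and 13.77 in the mutants, a 33.9-fold gap between the mutant sources on either side of all controls. Sprr1a followed with 10.04, 10.79 and 11.35 against 8.81 and 12.61. The mean differences were 0.71 (SE 1.45, 95% interval -2.92 to 4.33) for Sprr1b and -0.02 (SE 1.11, 95% interval -2.79 to 2.76) for Sprr1a. For both genes the mutant sources enclosed the controls. Sprr4 stood at 8.86, 9.18 and 9.79 in controls and 7.64 and 9.58 in mutants, highest in a control source (difference -0.67, SE 0.62, limma adjusted p = 0.732). Sprr2i was above background on all 4 arrays of mutant source 2 (8.65) and on 0 of the other 12, where the values of single arrays lay between 4.65 and 4.96. Sprr2b and Sprr3 were above background on 0 of 16 arrays. Copies of the Sprr2 family are close in sequence, and how far each probe reads its neighbours was not tested.

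Late cornified envelope genes, which are expressed in the outermost living layers, were at or near background in most sources. Lce1m was not above background in control sources 1 and 2 or in mutant source 1 (5.00, 5.26 and 5.01), and reached 6.18 in control source 3 and 9.21 in mutant source 2. Lce1c, above background on 15 of 16 arrays, stood at 6.11, 6.58 and 6.77 in controls and 5.65 and 8.08 in mutants. Neither separated the groups, with log2 differences of 1.63 (SE 1.21, limma adjusted p = 0.665) and 0.38 (SE 0.71, limma adjusted p = 0.887). Lce1b and Lce3c were above background only on the 4 arrays of mutant source 2, at 6.83 and 7.38. Lce1a2, Lce1f, Lce1g and Lce1i were not above background on any array. Lce3a stayed near background, above it on 7 arrays, and its range of 0.45 was the smallest of the tested members and close to its SD between repeat arrays (0.38).

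Of the scaffold and bulk proteins, loricrin (Lor), the main envelope protein of the epidermis, stood at 9.08, 10.61 and 11.70 in controls and 9.46 and 12.16 in mutants. Involucrin (Ivl), an early scaffold protein, stood at 10.54, 11.14 and 11.24 in controls and 8.11 and 11.69 in mutants. Ivl had the most negative difference of the members, -1.08 (SE 1.02, 95% interval -3.61 to 1.46, limma adjusted p = 0.738), and it came from mutant source 1 alone, at -2.87 relative to the control mean, while mutant source 2 lay above every control. For Lor the difference was 0.35 (SE 1.05). Periplakin (Ppl) and sciellin (Scel) had the smallest ranges of the members above background on all arrays. Ppl lay between 12.11 and 13.11 and Scel between 10.78 and 11.94. For these 2 genes the 95% interval of the difference was narrower than for most members, -0.93 to 0.63 for Ppl and -1.23 to 0.56 for Scel.

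Filaggrin-type genes, whose products bundle keratin filaments, were near background in part of the sources. Flg2 was not above background in control source 1 and mutant source 1 (4.88 and 4.86) and stood at 7.01 and 7.94 in the other controls and 7.06 in mutant source 2. Hrnr, which encodes hornerin, had 4.83, 5.86 and 7.46 in controls and 4.89 and 8.01 in mutants. In both genes the low samples were 1 control and 1 mutant source. Rptn, which encodes repetin, lay between 5.30 and 6.13 in all sources except mutant source 2, at 8.50, and its other probe was above background only there, at 6.90. The differences were -0.65 (SE 1.06) for Flg2, 0.40 (SE 1.13) for Hrnr and 1.04 (SE 0.91) for Rptn.

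The enzymes include a pair of proteases. Asprv1, the aspartic protease that processes profilaggrin, stood at 10.34, 12.31 and 13.12 in controls and 10.07 and 15.30 in mutants, a 37.6-fold gap within the mutant group. Casp14 stood at 10.98, 12.07 and 12.42 against 10.99 and 13.31. Mutant source 1 and control source 1 were the low samples for both proteases, and mutant source 2 the high one. Their differences were 0.76 (SE 1.64) and 0.33 (SE 0.77).

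The transglutaminases, which crosslink the envelope, did not share 1 order. Tgm1, the membrane-bound epidermal enzyme, was even among controls (8.36, 8.41 and 8.66) and split in the mutants (8.00 and 10.15), a difference of 0.60 (SE 0.62). Tgm3, found in hair follicle and epidermis, stood at 7.94, 7.83 and 7.27 in controls and 7.86 and 8.70 in mutants, with control source 3 lowest where most members had it highest among controls, a difference of 0.60 (SE 0.35, 95% interval -0.27 to 1.47, limma adjusted p = 0.570). Tgm5 stood at 8.14, 9.09 and 9.48 in controls and 9.26 and 8.80 in mutants, and its other tested probe gave the same order of sources. Tgm5 was thus the only tested member that was lower in mutant source 2 than in mutant source 1.

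**Figure D2:**
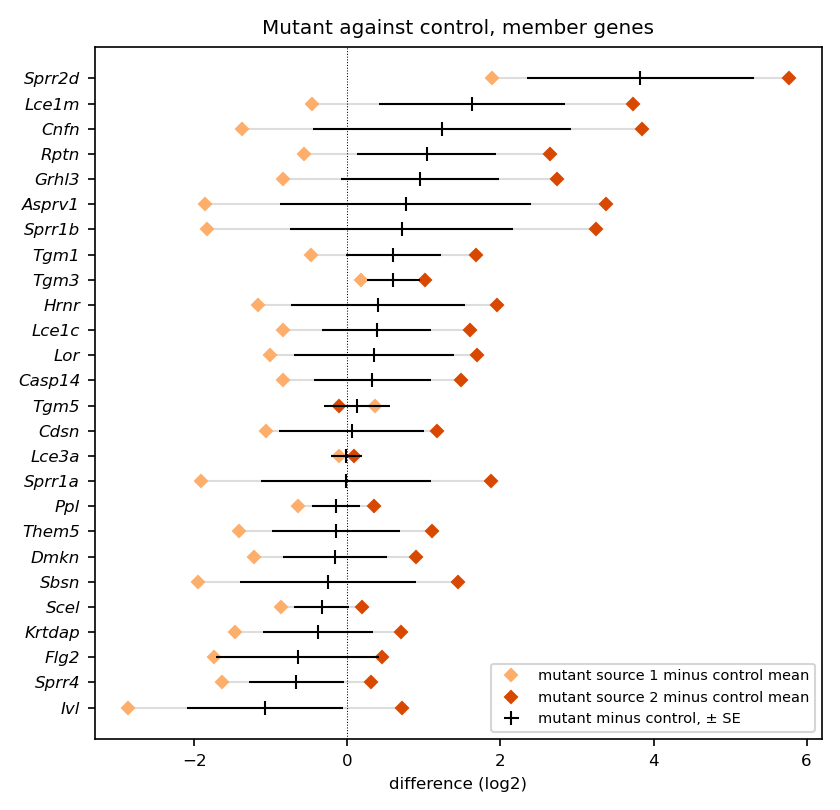
Difference from the mean of the 3 control sources (log2, x axis) for the 26 tested member genes (rows). Diamonds are mutant source 1 (light) and mutant source 2 (dark), and black bars are the fitted mutant minus control difference ± SE. The mutant sources lie on opposite sides of 0 in most genes, and both lie above it for Sprr2d and Tgm3.

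The secreted and cell-surface products of the upper layers moved in the same way. Dmkn (dermokine) stood at 14.20, 15.07 and 15.40 in controls and 13.67 and 15.79 in mutants, and Krtdap at 13.63, 14.61 and 15.00 against 12.94 and 15.11. Sbsn (suprabasin), which lies beside them on chromosome 7, stood at 10.06, 11.73 and 12.43 against 9.46 and 12.85. All 3 were lowest in mutant source 1 and highest in mutant source 2, with differences of -0.16 (SE 0.68), -0.38 (SE 0.72) and -0.25 (SE 1.15). Cdsn, the corneodesmosome protein that holds corneocytes together, stood at 7.90, 9.41 and 10.44 in controls and 8.19 and 10.43 in mutants. Cnfn (cornifelin) stood at 6.23, 8.21 and 9.31 in controls and 6.54 and 11.76 in mutants, the second widest range of the members at 5.54. Them5, an acyl-CoA thioesterase gene on chromosome 3 outside the complex, stood at 10.67, 11.73 and 12.28 against 10.15 and 12.67. Of the 7 members with several probes, the tested probes of Cdsn, Dmkn, Ppl and Them5 differed in the sign of their small differences, while each probe had mutant source 2 above mutant source 1.

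Grhl3, the grainyhead-like transcription factor that drives barrier formation, was the only transcription factor on the list. It stood at 8.61, 9.25 and 9.63 in controls and 8.32 and 11.90 in mutants, so that it followed the order of the envelope genes. The gap within the mutant group was 11.9-fold. The group difference was 0.95 (SE 1.03, 95% interval -1.63 to 3.53, limma adjusted p = 0.780), and 3 of its 5 sources, the controls, lay between the mutant ones.

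**Figure D3:**
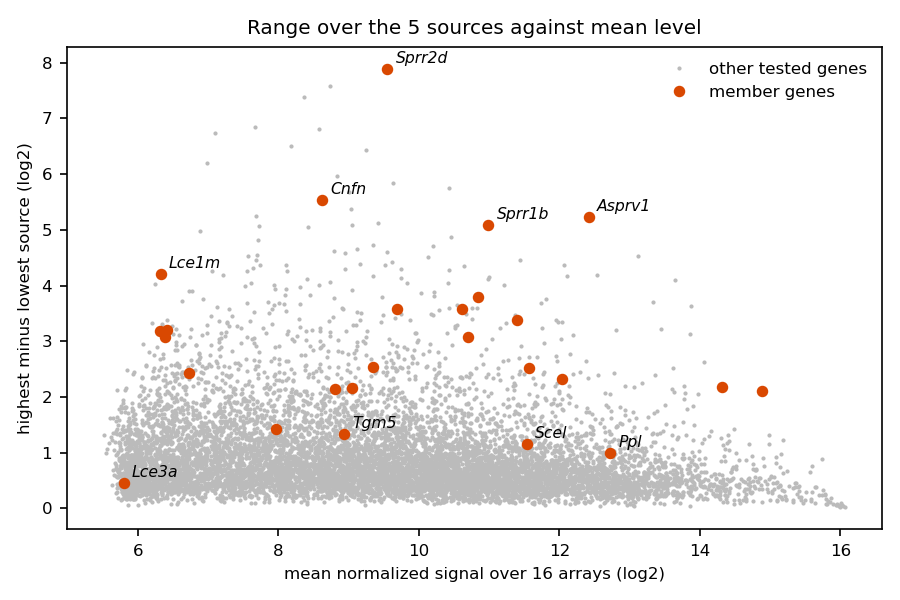
Highest minus lowest source mean (log2, y axis) against the mean normalized signal over 16 arrays (log2, x axis) for each of the 10013 tested genes. Member genes are orange and all others grey. Sprr2d has the widest range at 7.89, and Lce3a, Ppl and Scel lie among the bulk of genes.

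The result for the group as a whole turned on which mutant source was considered. With mutant source 1 left out, 25 of the 26 genes lay above the control mean with a median difference of 1.46, and with mutant source 2 left out 23 lay below it with a median of -1.04. In neither case did a member pass the limma test (0 of 26, with the lone mutant source assumed to vary like the controls). Counting the 16 arrays as separate samples, limma called 3 members, Sprr2d (difference 4.11, adjusted p = 0.00116), Tgm3 (0.66, adjusted p = 0.0114) and Lce1m (1.93, adjusted p = 0.0435), all higher, where 15.7% of all tested genes were called higher and 18.3% lower. That fit takes repeat arrays of a source for replicates.

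Other genes of cornification varied in the same manner. From a list of 52 further genes of the epidermal differentiation complex, the granular layer and its regulators, 30 were tested and 0 passed the limma test in either direction. At an unadjusted limma p below 0.05, 0 were higher and 3 lower, where 12.2% of all tested genes had such a p in either direction. Mutant source 2 exceeded mutant source 1 in 27 of the 30, and the median difference between the groups was -0.03. The 3 genes with the smallest p were Ccl27a, a keratinocyte chemokine (-0.84, SE 0.18, limma adjusted p = 0.256), Tchhl1, a trichohyalin-like gene of the complex (-1.62, SE 0.50, limma adjusted p = 0.329), and Prr9 (-1.32, SE 0.41, limma adjusted p = 0.330). In these 3, picked by p, both mutant sources lay below all controls. That order was found in 4 of the 30, where 15.3% of all tested genes had it. In 2 of the 30 both mutant sources lay above all controls (14.1% of all tested genes).

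Of the 4 further Sprr2 genes tested, Sprr2e, Sprr2f and Sprr2g reached 11.53, 11.25 and 12.47 in mutant source 2, against highest values of 6.22, 5.76 and 8.26 in the controls and 5.37, 5.67 and 6.66 in mutant source 1. The other, Sprr2a1, did not share this pattern, at 9.17, 9.01 and 9.11 in controls and 9.33 and 9.29 in mutants. Klk7, a kallikrein protease of desquamation, stood at 10.53, 11.65 and 12.47 in controls and 10.37 and 13.35 in mutants. A list of 14 genes of stressed or inflamed keratinocytes differed in pattern: of 9 tested, 1 passed, S100a9 (5.49, SE 0.41, limma adjusted p = 0.0470), and 6 had both mutant sources above all controls (14.1% of all tested genes). No probe, S100a9 included, passed without background correction or with any 1 source left out. The next in that list by p were S100a8 (3.10, SE 0.44, limma adjusted p = 0.198) and Stfa1 (2.50, SE 0.67, limma adjusted p = 0.302).

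Markers of cell layers were set beside these shifts. The 7 basal keratinocyte genes, all tested, had summed log2 levels of 97.9 to 99.1 in controls and 97.1 to 99.1 in mutants and a median range over the sources of 0.32. Their ranges ran from 0.11 for Krt14, at the upper end of the scale, to 0.84 for Itga6, beside a median of 0.71 over all tested genes. Mutant source 2 exceeded mutant source 1 in 6 of the 7, the members' direction, with a median gap of 0.27 over the list. The suprabasal list (5 of 6 tested, Dsg1a not above background, all also on the list of further cornification genes) ran with the members, from 48.8 to 55.3 in controls and at 47.1 and 60.3 in mutant sources 1 and 2. Krt1, a keratin of the spinous layer, stood at 11.13, 12.31 and 12.71 in controls and 11.49 and 13.78 in mutants.

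Of the other compartments, some ran opposite to the members within each group, some in the same order and some in neither. Inner root sheath genes (3 of 6 tested, Krt25 not above background) summed to 36.4, 34.6 and 31.8 in control sources 1, 2 and 3 and to 35.9 and 29.6 in mutant sources 1 and 2. T cell genes (5 of 6 tested) summed to 51.1, 46.2 and 42.3 in controls and 38.1 and 29.6 in mutants, and melanocyte genes (4 of 5 tested, Tyr above background on 1 array) to 46.2, 44.1 and 40.7 against 42.0 and 35.7. Skeletal muscle genes (3 of 6 tested) summed to 22.1, 21.7 and 21.4 against 21.4 and 18.7. For these 4 lists the source with the higher sum, within each group, was the one with the lower median of the envelope genes. For skeletal muscle this order among controls rested on Actn3 (6.70, 6.31 and 5.63), not above background in control source 3. Acta1 rose instead (7.10, 7.34 and 7.43), and Myl1 was highest in control source 3 (8.27, 8.08 and 8.34). Endothelial genes (5 of 6 tested) ran, by their sum, in the members' order within each group, at 55.5, 57.7 and 61.0 in controls and 52.7 and 54.1 in mutants. The sum of the 2 tested adipocyte genes did so too (13.1, 14.8 and 15.0 against 12.4 and 12.8). Of these, Adig ran in that order, while Adipoq, above background on 9 arrays, was highest in control source 2 (6.22). In both lists the sums in both mutant sources lay below those in all control sources. Sebocyte genes (4 of 6 tested) summed to 37.6, 40.1 and 41.3 in controls and 30.2 and 30.1 in mutants. All 4 were lower in both mutant sources than in any control, where 15.3% of all tested genes were. The same held for all 5 T cell genes, 3 of the 4 hair shaft genes and 3 of the 5 endothelial genes. It held for 2 of the 6 dermal fibroblast genes and for 0 or 1 gene in each other list of this paragraph. Of the sebocyte genes Mc5r, a melanocortin receptor of sebaceous glands, passed the limma test (-2.95, SE 0.22, adjusted p = 0.0470). Like S100a9, Mc5r did not pass without background correction. Its levels in mutant sources 1 and 2, 5.78 and 5.72, lay near background (above it on 2 of 3 and 1 of 4 arrays). This limits its difference and SE. Hair shaft genes (4 of 7 tested) summed to 32.9, 29.1 and 35.0 against 24.9 and 26.5, and macrophage and Langerhans genes (4 of 6 tested) to 38.7, 44.2 and 45.8 against 45.6 and 42.0. Dermal fibroblast sums lay between 69.3 and 70.2 in controls and at 69.3 and 66.4 in mutants. The part of these markers, and of the Y-linked difference between the mutant sources, in the levels of the members was not tested.

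**Figure D4:**
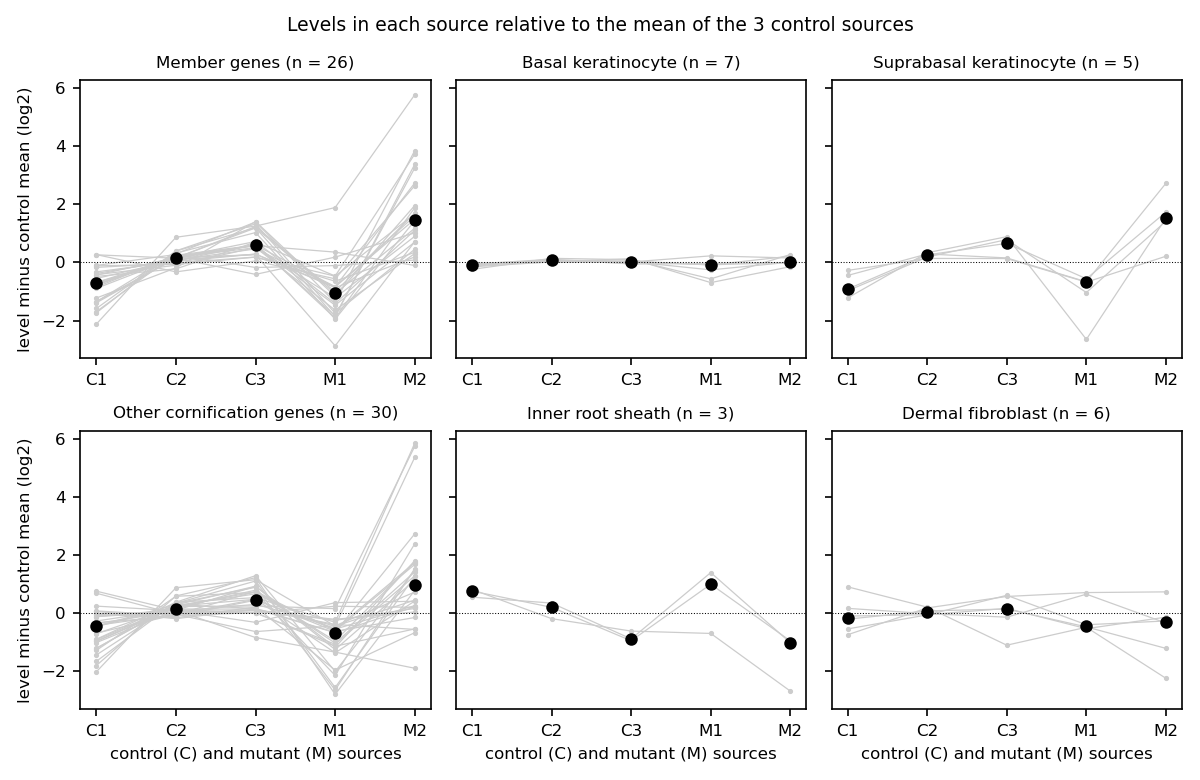
Level minus the mean of the 3 control sources (log2, y axis) in control sources 1 to 3 (C1 to C3) and mutant sources 1 and 2 (M1, M2). Grey lines join the values of 1 gene and black points are the medians of each list, here the 26 member genes and 5 comparison lists. The median of the member genes lies at -1.04 in M1 and 1.46 in M2, and that of the basal keratinocyte genes at -0.09 and 0.01.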

How the data were processed

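The members, the lists and the tests were chosen with earlier results of these data known. One deposited table holds, per array, the average probe intensity and the p-value of its detection, per the file headers. The submitters' processing notes name GenomeStudio, with no version. Another deposited table, tried as an alternative, holds intensity values normalized by the authors in a way that is not stated. They are linear, since they equalled the quantile-normalized raw intensity to a median of 0.00648%, and their array medians were 203.6 to 203.9. Background correction (neqc, offset 16, with control statistics estimated out of the detection column), quantile normalization and the log2 step used limma 3.58.1 under R 4.3.3. The deposited values are not log2. Probes were named from the platform annotation (23978 with 1 symbol, 0 with several, 1719 without). Positions and promoters are RefSeq's for GRCm38.p6. Arrays of a labelled group correlating above 0.99 were averaged as 1 source. A linear model moderated by eBayes along mean signal (degrees of freedom 3 residual, 2.53 prior) was fitted on all 14504 tested probes, with Benjamini-Hochberg adjustment. The named members were the 8 in each direction with the smallest p and the 8 with the widest gap within a group, 19 in all; the other tested members are described too, and from each pathway list the genes past the threshold and the 3 with the smallest p. The values of further Sprr2 genes, Klk7 and single cell markers were chosen after they were seen. Levels of different probes were not compared. Raw array medians were 175.9 to 223.5, with 52.2% to 57.0% of probes detected, and the number of sources limits the precision. The fit was checked on simulated data. Alternatives covered background, scaling, the authors' table, filters, slides, blocks, the trend, probes per gene, the threshold and leaving out each array and source.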

Additional observations from a re-analysis of the deposited data

Results flagged for a closer look

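Signals outside the tested set came from member probes that were above background on mutant arrays and on 0 of the 9 control arrays but on too few arrays to be tested. Mutant source 2 gave such a signal on all 4 of its arrays for Sprr2i (8.65), Lce3c (7.38), Lce1b (6.83) and an additional probe of Rptn (6.90). On the arrays of mutant source 1 these 4 probes were above background on 0. The probes were picked by this rule, and the share of all probes that meet it is not given here. They therefore describe 1 source and not a difference between the groups. Another probe of Tgm5 was above background on 1 mutant array, of mutant source 1 (source mean 5.64). No single array stood apart from its labelled group in the 38 sets of array values examined, those of the 19 named members in each group. Since each array had close repeat arrays of its own source in its group, this check had little room to find one.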

How the results depend on the processing

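The count of probes past the limma threshold, 8 with 5 sources, was 0 without background correction, with an offset of 50, with the authors' table, with 75th percentile scaling, with probes detected on all 16 arrays, on slide 1 or slide 2 by itself and with 1 probe per gene, 1 with cyclic loess and 4 without a filter. Leaving out 1 array or source gave 0 to 8, and 0 without control arrays 2, 4 or 6 or without any 1 source. Fits that take arrays as samples called more: 883 with source as a random block, 3395 with the title number as a replicate block and 4914 with 16 separate arrays, and of the members 1, 1 and 3. The title numbers share only a number (same-number deviations correlated at -0.386 to 0.418, above 0.1 in 3 of 7 pairs, and 2 of 7 arrays correlated best with their own number). The Gab1 difference passed the threshold in these 3 fits, at -1.03, -1.0002 and -0.99, and not with 5 sources. The member median of 0.23 became -1.04 without mutant source 2 and 1.46 without mutant source 1. The differences of 17 of the 19 named members changed sign when 1 source was left out, and Sprr2d and Tgm3 kept theirs in every alternative run. The lowest and highest values over the left-out arrays and sources were, without mutant source 2 and without mutant source 1 respectively, Asprv1 (-1.86 to 3.38), Cnfn (-1.38 to 3.85), Sprr1b (-1.83 to 3.25), Sprr1a (-1.91 to 1.88), Lce1m (-0.47 to 3.73), Lce1c (-0.84 to 1.60), Sprr4 (-1.64 to 0.31), Ivl (-2.87 to 0.72), Flg2 (-1.75 to 0.45), Rptn (-0.56 to 2.64), Tgm1 (-0.47 to 1.67), Scel (-0.87 to 0.19), Ppl (-0.65 to 0.35), Krtdap (-1.47 to 0.70), Dmkn (-1.22 to 0.90), Sbsn (-1.95 to 1.44) and Grhl3 (-0.84 to 2.73). Sprr1a, near 0, also turned positive without background correction (0.0662), with an offset of 50 (0.0101), 75th percentile scaling (0.0630), cyclic loess (0.0344), the authors' table (0.0662), slide 2 by itself (0.0529), the random block (0.00085), the replicate block (0.33) and 16 separate arrays (0.26). Dmkn (0.10) and Sbsn (0.15) did so with the replicate block. The cause of these changes was not tested. The slide block and the fit without a trend turned no named difference. With 5 sources, the smallest adjusted p of a named member under any alternative was 0.0940. Signal near background in at least 1 source limits the values of Sprr2d, Flg2, Hrnr, Rptn, Lce1m and Lce3a. For Sprr2d that source was control source 1, and the difference may understate the change. For the others such sources lay in both groups, so the difference may be too small or too large.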
